A study of Mus musculus with 20 samples.

Results

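The late stages of 2 reprogramming paths were compared, namely NanogN70+Oct4 at days 10 and 12 and Nanog+Oct4 at days 10 and 12, with 1 ATAC-seq library for each path and day (4 of the 20 libraries of the series). All 4 came from mouse embryonic fibroblasts (MEFs) that received Oct4 by retrovirus together with either native Nanog or NanogN70, the fusion that the study also calls NanogBiD. The MEFs came from E13.5 embryos of OG2 males, which carry an Oct4-GFP transgene, and females of the 129 strain, and the cells of both paths were moved from iCD3 to 2iL medium during the time course. The remaining libraries were 1 from MEFs, 3 from embryonic stem cells (ESCs) and 12 from days 0, 1, 3, 5, 7 and 8 of both paths. No group of the comparison has a replicate, because the 2 libraries of a side are successive days of 1 time course, and the labels do not state how many embryos or transductions lie behind them. The 3 ESC libraries are named ESC in their titles while their source field names MEF, and they were grouped by title. Each library was made from a bulk population, so fewer cells of a type and less open chromatin per cell cannot be told apart.

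A region was a stretch of overlapping peaks from any of the 20 libraries, and a library in which at least 1 of those peaks lay counted as open there. A region was called NanogN70-only if it was open in both NanogN70 libraries and in neither Nanog library, and Nanog-only in the opposite case. Of 335858 regions in the series, 71805 were open in at least 1 of the 4 libraries and 22328 in all 4. There were 3696 NanogN70-only regions, which was 5.15% of the 71805, and 3590 Nanog-only regions, which was 5.00%. The 7286 regions of both kinds are the subject here, and their peaks in the 4 libraries were what chose them, so that contrast is described without a test.

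NANOG is a homeodomain factor of the pluripotency network that works with OCT4 and SOX2 at the enhancers of embryonic stem cells. BAF is an ATP-dependent chromatin remodelling complex whose catalytic subunit is BRG1, and it moves nucleosomes away from enhancers that transcription factors have bound. In NanogN70 the BRG1-interacting part of SS18, a BAF subunit, is joined to the N-terminus of NANOG. Fibroblast enhancers are typically bound by AP-1, TEAD and RUNX factors, and they are closed during reprogramming while the enhancers of pluripotent cells open.

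The 4 libraries differed in how many peaks they yielded. The NanogN70 libraries held 44126 peaks at day 10 and 54272 at day 12, and the Nanog libraries held 50716 and 48843. Depth is unknown because no source used here gives read numbers, and the pileup (the tags stacked at a summit) at regions open in all 20 libraries served as a guide to it. Its median was 28 and 41 in the NanogN70 libraries and 23 and 24 in the Nanog libraries. NanogN70 day 12 was thus the library with the most peaks and the highest pileup. The 2 libraries of a side were not always the closest pair. NanogN70 days 10 and 12 shared 0.604 of the regions open in either (Jaccard index) and Nanog days 10 and 12 shared 0.522, but NanogN70 day 10 and Nanog day 12 shared 0.574. Nanog day 10 shared the least with the NanogN70 libraries, 0.460 at day 10 and 0.420 at day 12.

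Both called sets consisted mostly of weak peaks. At NanogN70-only regions the median pileup was 7 at day 10 and 9 at day 12, against 11 and 12 over all peaks of these libraries. At Nanog-only regions it was 8 at day 10 and 6 at day 12, against 9 in both libraries. MACS scores each peak as -10 times the log10 of its p-value, and no peak in the 4 lists scored under 50. The lower of the 2 scores of a called region had a median of 65.5 in the NanogN70-only set and 66.9 in the Nanog-only set, and it was under 60 in 36.9% and 34.1% of regions, next to the limit below which no peak was listed. A region without a peak may therefore be open below the detection limit of its library.

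Sequences are shown first for the regions on which the account turns, each as 101 bases of GRCm38 (plus strand) around the highest summit. The capitals mark the letters of any motif of a fixed panel, which is described further on. The first set holds the promoter regions of pluripotency genes that were NanogN70-only, shown because this list had the most genes with a promoter call. In order of score they lie at chr4:134019400-134019500, chr3:127544735-127544835, chr7:144861205-144861305, chr4:134018967-134019067, chr12:86470062-86470162, chr7:19577223-19577323, chr7:3217680-3217780 and chrX:86192295-86192395.
Lin28a, first region: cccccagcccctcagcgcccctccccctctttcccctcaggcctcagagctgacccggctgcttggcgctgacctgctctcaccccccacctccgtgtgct
Mir302b: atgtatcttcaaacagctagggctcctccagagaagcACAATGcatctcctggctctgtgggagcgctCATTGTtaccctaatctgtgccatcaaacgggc
Fgf4: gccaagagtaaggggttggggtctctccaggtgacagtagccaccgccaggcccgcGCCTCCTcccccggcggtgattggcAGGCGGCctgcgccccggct
Lin28a, second region: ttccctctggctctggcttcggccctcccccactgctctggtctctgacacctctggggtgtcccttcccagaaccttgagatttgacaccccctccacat
Esrrb: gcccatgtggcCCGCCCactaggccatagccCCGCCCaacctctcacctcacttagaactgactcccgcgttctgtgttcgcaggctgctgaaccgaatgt
Zfp296: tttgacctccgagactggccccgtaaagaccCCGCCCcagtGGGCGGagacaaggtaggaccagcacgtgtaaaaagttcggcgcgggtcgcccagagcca
Mir290a: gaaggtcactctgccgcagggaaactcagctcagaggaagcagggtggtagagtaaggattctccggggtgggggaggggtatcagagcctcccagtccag
Nr0b1: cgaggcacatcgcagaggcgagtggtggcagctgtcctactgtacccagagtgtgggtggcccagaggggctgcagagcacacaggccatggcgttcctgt

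The second set holds the highest-scoring called regions of the leading state on each side (without the one at Mbp), 4 that were NanogN70-only and open in ESCs but not MEFs (named Calml3, Galntl6, Shb and Dynll2 after the nearest gene) and 3 that were Nanog-only and open in MEFs but not ESCs (Vav3, Smad6 and Utrn). They lie at chr13:3730489-3730589, chr8:57733102-57733202, chr4:45654464-45654564, chr11:88015296-88015396, chr3:109273146-109273246, chr9:63896551-63896651 and chr10:12821511-12821611.
Calml3: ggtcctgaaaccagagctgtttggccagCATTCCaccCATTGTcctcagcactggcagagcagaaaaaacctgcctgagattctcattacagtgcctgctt
Galntl6: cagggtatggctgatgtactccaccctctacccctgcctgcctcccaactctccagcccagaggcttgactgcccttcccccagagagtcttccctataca
Shb: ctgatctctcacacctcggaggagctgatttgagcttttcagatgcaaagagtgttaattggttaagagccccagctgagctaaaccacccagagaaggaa
Dynll2: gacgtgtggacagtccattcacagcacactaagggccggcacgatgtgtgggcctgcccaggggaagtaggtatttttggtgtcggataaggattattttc
Vav3: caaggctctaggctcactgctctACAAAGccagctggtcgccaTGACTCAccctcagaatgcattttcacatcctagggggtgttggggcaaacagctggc
Smad6: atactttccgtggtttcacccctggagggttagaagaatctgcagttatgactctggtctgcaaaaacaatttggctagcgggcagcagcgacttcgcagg
Utrn: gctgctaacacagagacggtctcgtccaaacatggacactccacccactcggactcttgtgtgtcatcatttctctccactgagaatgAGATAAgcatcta

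To ask which cell state the called regions belong to, each was looked up in the MEF library and the 3 ESC libraries, which the call did not use. NanogN70-only regions were most often open in ESCs alone. ESC-only regions (open in 2 or more ESC libraries and closed in MEFs) made up 1349 of 3696, or 36.5% (exact 95% interval 34.9 to 38.1, counting error only), against 13.8% of all regions open in any of the 4 libraries. MEF-only regions (open in MEFs, closed in the 3 ESC libraries) made up 179, or 4.84%, against 15% of all. The Nanog-only set was the reverse. MEF-only regions made up 1923 of its 3590, or 53.6% (51.9 to 55.2), and ESC-only regions 100, or 2.79%. Seen from the state, 13.6% of the 9893 ESC-only regions open in any of the 4 libraries were NanogN70-only and 1.01% were Nanog-only, while 17.9% of the 10757 MEF-only regions were Nanog-only and 1.66% were NanogN70-only.

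**Figure D1:**
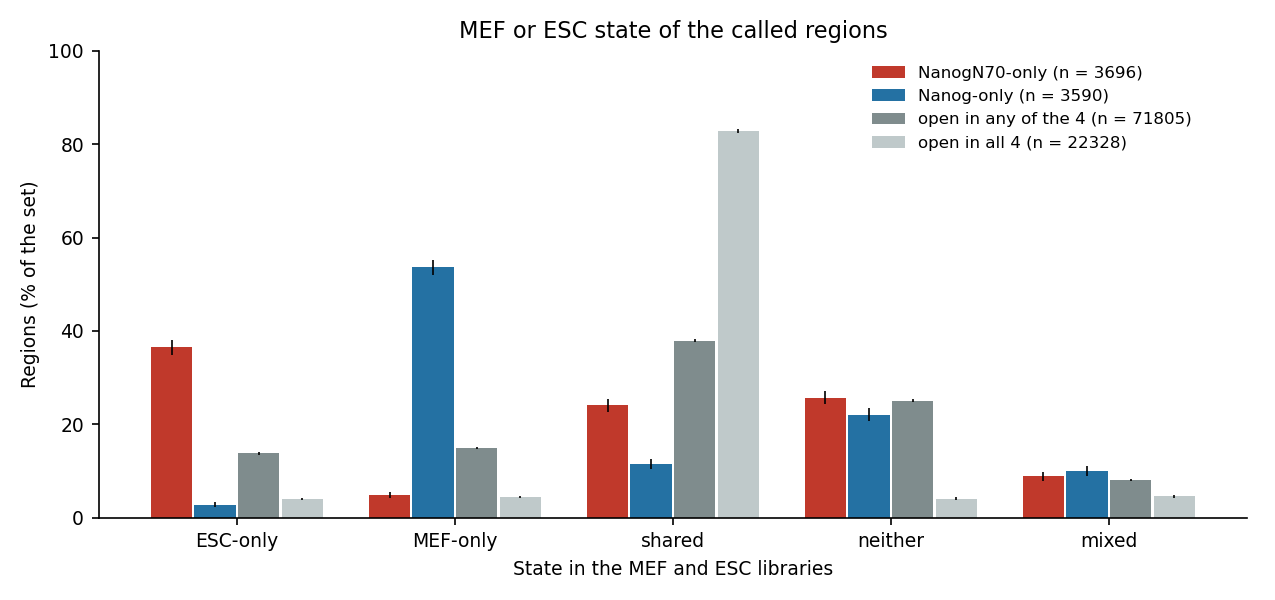
Share of regions (y axis, percent of the set) in each state of the MEF and ESC libraries (x axis) for the 3696 NanogN70-only regions, the 3590 Nanog-only regions, the 71805 regions open in any of the 4 libraries and the 22328 open in all 4, with exact 95% intervals. ESC-only is the most frequent state of the NanogN70-only regions at 36.5%, and MEF-only that of the Nanog-only regions at 53.6%.

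The other regions of both sets were spread over 3 states. Shared regions, those open in MEFs as well as the 3 ESC libraries, made up 24.1% of the NanogN70-only set and 11.5% of the Nanog-only set, against 37.9% of all regions open in any of the 4 libraries. Regions open in neither cell type made up 25.7% and 22.1%, close to the 25.1% over all. Mixed regions, those left over, made up 8.85% and 10.0%. Regions open in all 4 libraries were mostly shared (82.8%). A call did not always mark a site closed in the starting cells, since MEFs held a peak at 1230 NanogN70-only regions (33.3%), and the 3 ESC libraries at once did at 2104 (56.9%). MEFs held a peak at 2651 Nanog-only regions (73.8%), and the 3 ESC libraries at once did at 483 (13.5%).

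The same contrast was then taken over every region of a state rather than over the called ones. Of the 55446 ESC-only regions of the series, 8.16% were open at day 10 and 14.2% at day 12 with NanogN70, and 3.73% and 5.87% with Nanog. The NanogN70 mean was 6.38 percentage points higher (11.2% against 4.80%), and the libraries of the 2 sides did not overlap. Of the 74608 MEF-only regions, 3.07% and 4.17% were open with NanogN70 and 11.2% and 6.52% with Nanog. Here the NanogN70 mean was lower by 5.23 points (3.62% against 8.85%; difference -5.23), again without overlap. At the 31355 shared regions, which serve as background for how readily a library yields peaks, NanogN70 was 4.0 points higher (75.4% against 71.4%). With 2 libraries a side the exact two-sided permutation test cannot give less than p = 0.333, which is what it gave for all 3 states, so these differences are measurements of 4 libraries and passed no test.

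**Figure D2:**
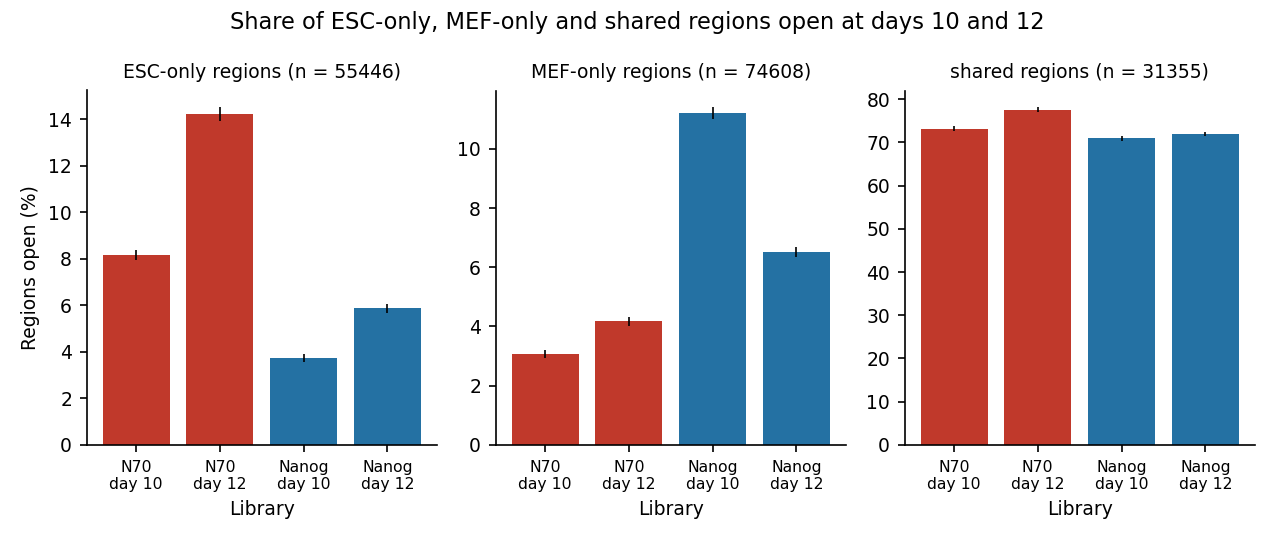
Share of all ESC-only, MEF-only and shared regions (y axis, percent; each panel has its own scale from 0) that were open in each of the 4 libraries (x axis), with exact 95% intervals. Both NanogN70 libraries, labelled N70, lie above both Nanog libraries for ESC-only regions and below them for MEF-only regions.

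The called regions were followed back through days 0 to 8, in 12 libraries the call did not use. NanogN70-only regions were already open more often in the NanogN70 path on each of these days. The share open in the NanogN70 path was 24.9% at day 0, 17.8% at day 1, 33.5% at day 3, 41% at day 5, 61.6% at day 7 and 49.4% at day 8. In the Nanog path it was 11.1%, 12.7%, 16.1%, 25.8%, 34.3% and 29.8% on the same days. In both paths the share was higher on each sampled day than on the one before from day 1 to day 7, and lower at day 8. The Nanog path had a peak at 46.8% of these regions on at least 1 of days 0 to 8, and the NanogN70 path at 73.6%. The mean daily difference was 16.4 points (38.1% against 21.7%), positive on 6 of 6 days, with an exact two-sided sign-flip permutation p = 0.0312, the smallest that 6 days allow, and an adjusted p = 0.0625 over the 2 sets (Benjamini-Hochberg), which did not pass 0.05. After the daily difference at regions open in all 4 libraries was subtracted, the mean was 14.1 points and the adjusted p of the exact test was 0.0312. The day 0 difference was the one most changed by this, from 13.8 to 5.71 points. Those background regions had stronger peaks and were 78.3% to 97.1% open in the libraries of days 0 to 8. The subtraction therefore does not measure how peak yield differs at weak regions, and the part of yield was not tested.

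Nanog-only regions had a different history. Nearly all of them (98.9%) were open on at least 1 of days 0 to 8 in the Nanog path, and 90.1% in the NanogN70 path. In the NanogN70 path the share open went from 72.5% at day 0 through 57.5%, 49.9%, 53.2% and 50.4% to 42.6% at day 8, whereas in the Nanog path it went from 65.7% through 66.1%, 73.1%, 79.7% and 82.6% to 94.6%. The gap was therefore in the opposite direction at day 0 (6.88 points higher with NanogN70) and -51.9 points at day 8. The mean was lower by 22.6 points in the NanogN70 path (54.4% against 77.0%; difference -22.6) on 5 of 6 days, with an exact permutation p = 0.0625 and an adjusted p = 0.0625. With the background subtracted it was -24.8 points, negative on every day, with an adjusted p = 0.0312 by the exact test. The limit given above for that background applies here too. Since each path was sampled once on each day, these tests speak for these libraries only.

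**Figure D3:**
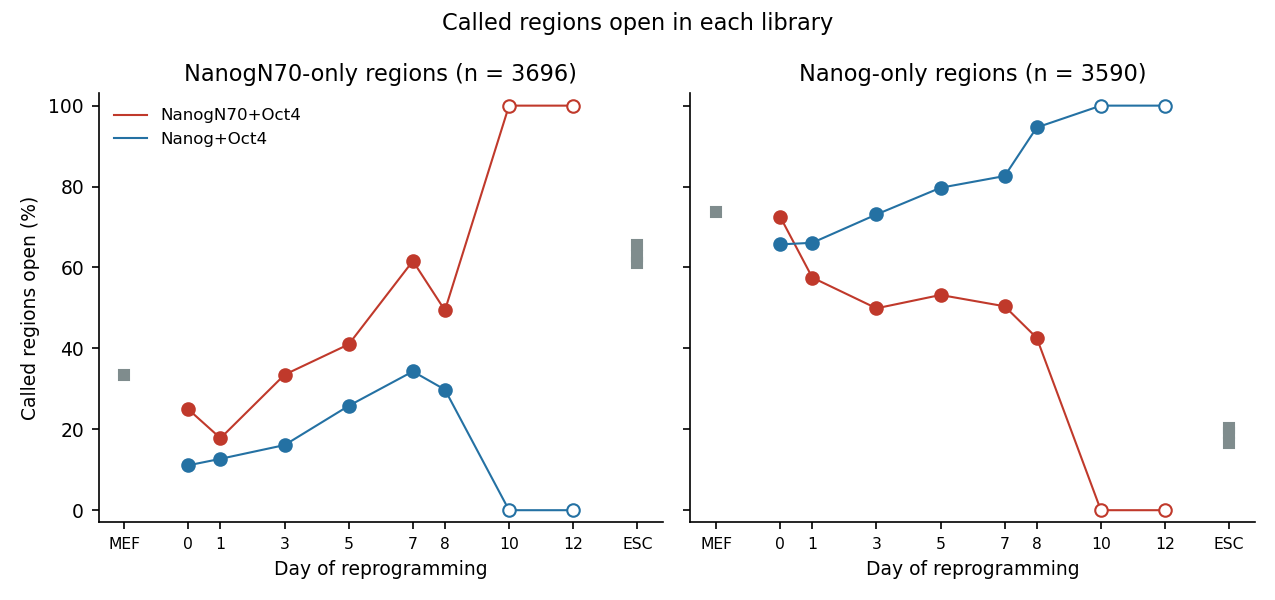
Share of the called regions with a peak (y axis, percent) in each library (x axis: MEF, day of reprogramming, ESC) for NanogN70-only regions on the left and Nanog-only regions on the right. Open circles at days 10 and 12 are fixed by the call, filled circles are libraries it did not use, and grey squares are the MEF library and the 3 ESC libraries.

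The history differed by state within each set. The 1349 ESC-only NanogN70-only regions were open in 12.2% of cases at day 0 of the NanogN70 path and in 61.9% at day 7, against 2.08% and 24.8% in the Nanog path. The 1923 MEF-only Nanog-only regions began alike, 83.8% open at day 0 with NanogN70 and 82.6% with Nanog, and at day 8 were 40.1% and 96.5% open. The 794 Nanog-only regions open in neither MEFs nor ESCs were 31.9% open at day 0 of the Nanog path and 93.6% at day 8. The 951 NanogN70-only regions of that state were seen less often before: 472 of them had a peak in no other library of the series, which was 12.8% of all NanogN70-only regions, while 15 Nanog-only regions (0.418%) had none.

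Restricting each library to its 44000 highest-scoring peaks gave 3595 NanogN70-only regions (5.72% of the 62874 open in any of the 4 libraries) and 3087 Nanog-only regions (4.91%). Of the NanogN70-only regions, 2931 were called both ways, which was 79.3% of the full set and 81.5% of the restricted set. Of the Nanog-only regions, 2732 were called both ways, 76.1% and 88.5%. The lowest score kept lay between 50.2 and 65.1 in the 4 libraries. With the state still read from all MEF and ESC peaks, a choice made after seeing the data, 35.3% of the restricted NanogN70-only regions were ESC-only and 53.2% of the restricted Nanog-only regions were MEF-only. Keeping only peaks that scored at least 100 changed the balance, with 2153 NanogN70-only regions against 1210 Nanog-only regions. Calling with 1 library left out gave 5134 to 13943 NanogN70-only and 4318 to 13724 Nanog-only regions, the highest without NanogN70 day 10 and without Nanog day 12. Without NanogN70 day 12 there were 7084 and 5364. The order of the 2 counts turned without Nanog day 10 (5134 against 7729) and without Nanog day 12 (8803 against 13724).

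Called regions lay mostly away from promoters. A promoter was taken as 2 kb either way of the transcription start site (TSS) of a protein-coding or miRNA gene in GENCODE M21. Of the NanogN70-only regions, 421 (11.4%) touched a promoter. Of the whole set, 46.1% touched none and had their summit in an intron, 37.4% between genes and 5.01% in an exon. Of the Nanog-only regions, 212 (5.91%) touched a promoter, with 52.1% in introns, 37.7% between genes and 4.29% in exons. Over all regions open in any of the 4 libraries 24.1% touched a promoter, and over those open in all 4, 55.7%. The median distance from summit to TSS was 25294 bp in the NanogN70-only set and 36850 bp in the Nanog-only set, against 19394 bp over all. The promoter share was also set beside regions of like state open in any of the 4 libraries. In shared regions it was 16.9% in the NanogN70-only set and 16% in the Nanog-only set, against 49.7%. In ESC-only regions it was 11.1% and 8.00%, against 10.9%. In MEF-only regions it was 10.1% and 3.90%, against 6.98%, so the sets differed within this state.

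Each region was assigned to the gene with the nearest TSS if that lay within 100 kb, which is a position and says nothing of regulation. NanogN70-only regions were nearest to 2536 of 24125 genes, which is 10.5%, and Nanog-only regions to 2279, which is 9.45%. A called region in the promoter was found for 453 genes (1.88%) on the NanogN70 side and 220 (0.912%) on the Nanog side. There were 490 genes with a region of each kind nearest, 19.3% of the first group and 21.5% of the second. Gene lists were chosen with earlier results of these data known, so their counts are set beside these shares and carry no test.

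Pluripotency regulators were counted mostly on the NanogN70 side. Of 38 genes of this list, 21 (55.3%) had at least 1 NanogN70-only region nearest and 4 (10.5%) a Nanog-only one. Of the 192 regions nearest to these genes that were open in any of the 4 libraries, 33 (17.2%) were NanogN70-only and 4 (2.08%) Nanog-only, against 5.04% and 4.66% over all genes. Of the 33, 29 were ESC-only. Promoters of 26 and 34 of the 38 genes held a peak with NanogN70 at days 10 and 12, and of 21 and 24 with Nanog, where the MEF library held 23 and the ESC libraries 37 or 38. These counts include Nanog and Pou5f1 (Oct4), whose coding exons the vectors carry. The Nanog promoter peak of Nanog day 12 (pileup 7) touched a coding exon. Pou5f1 held no promoter peak in the second ESC library, against pileups of 612 and 591 in the others, which was not explained.

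The promoters of 6 genes of the list, Lin28a, Fgf4, Nr0b1, Zfp296, Mir302b and Mir290a, held a peak in both NanogN70 libraries and in neither Nanog library nor MEFs. Lin28a encodes an RNA-binding protein that blocks the maturation of let-7, and it had the highest-scoring call of the list. Its first promoter region (chr4:134019228-134019650, 609 bp from the TSS) had a pileup of 16 at day 10 and 16 at day 12 with NanogN70 and no peak with Nanog, with 10 in 1 of the 3 ESC libraries. Its second (chr4:134018423-134019124) had 12 and 20, with 9, 15 and 11 in ESCs. No Nanog library of any day opened either region, and the NanogN70 path opened the second on 1 of the 6 earlier days. Over the whole promoter the NanogN70 pileups (16 and 20) were above those of the ESC libraries (9, 15 and 11), although pileups are not scaled to depth.

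Fgf4, the growth factor by which ESCs prompt their own differentiation, had a promoter region (chr7:144860876-144861586) with pileups of 7 and 18 with NanogN70, none with Nanog and 33, 51 and 31 in ESCs. It was open on none of days 0 to 8 in either path. Zfp296, a zinc finger gene of pluripotent cells, had 10 and 11 (chr7:19577064-19578237) and 15, 17 and 14 in ESCs. Nr0b1, an orphan nuclear receptor gene that NANOG and STAT3 are known to act on, had 6 and 6 (chrX:86191421-86192603) and 16, 13 and 10 in ESCs. At all 3 promoters the NanogN70 pileup was below that of every ESC library, and the Nanog libraries held no peak.

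The miRNA clusters of miR-302 and miR-290 are abundant in ESCs, and many of their members share a seed that targets cell cycle inhibitors. The Mir302b region (chr3:127544563-127545201), at the host locus Larp7, ended 27 bp before the first hairpin of the cluster. It had pileups of 12 and 11 with NanogN70, none with Nanog and 67, 70 and 38 in ESCs, and was open on 5 of the 6 earlier days in the NanogN70 path and 1 in the Nanog path. Near Mir290a there were 3 NanogN70-only regions, all ESC-only. The one in the promoter (chr7:3217485-3217937) ended 689 bp before the hairpin and had pileups of 7 and 17, with 45, 49 and 41 in ESCs. The others (chr7:3211966-3212419 and chr7:3206233-3207110) had 8 and 8, and 8 and 12. The 3p arms of the sense-strand miRNAs that start within 2 kb of these promoter regions are shown from RefSeq (GRCm38.p6), as far as the table holds them, with the seed (bases 2 to 8) in capitals.
mmu-miR-302b-3p: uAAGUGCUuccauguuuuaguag
mmu-miR-302c-3p: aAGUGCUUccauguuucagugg
mmu-miR-302d-3p: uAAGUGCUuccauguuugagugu
mmu-miR-367-3p: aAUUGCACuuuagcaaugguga
mmu-miR-290a-3p: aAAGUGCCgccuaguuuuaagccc
mmu-miR-291a-3p: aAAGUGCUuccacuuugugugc
mmu-miR-291b-3p: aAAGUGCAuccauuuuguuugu

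The seed AAGUGCU is common to miR-302b, miR-302d and miR-291a, and so to both clusters. As listed, miR-302c-3p starts 1 base later, so its seed letters are AGUGCUU. miR-290a and miR-291b differ from AAGUGCU in the last seed base, and miR-367 has an unrelated seed.

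Esrrb, an orphan nuclear receptor of the naive network, had 3 NanogN70-only regions. One lay in an intron (chr12:86501465-86502450), with pileups of 15 and 22 with NanogN70, none with Nanog and 73, 83 and 67 in ESCs. One had its summit 5 bp from a TSS of the gene (chr12:86469962-86470588), with 8 and 13, and 45, 70 and 56 in ESCs. The third (chr12:86395315-86395711) was shared with MEFs and had 9 and 7. A Nanog-only region in the same gene (chr12:86398575-86399212) was MEF-only and had 5 and 6 with Nanog. Taken over all its TSSs, the Esrrb promoter held a peak in all 4 libraries, with pileups of 11 and 16 with NanogN70 and 8 and 6 with Nanog.

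Tet2, which oxidizes methylated DNA, had 2 intronic NanogN70-only regions with pileups of 10 and 9, and 5 and 13, against 34 to 68 in ESCs. Jarid2, a partner of Polycomb complex 2, had 4 NanogN70-only regions and 1 Nanog-only region. Klf2, a naive-state Krüppel-like factor, had 2 adjoining ESC-only regions with NanogN70 (8 and 9, and 7 and 10) and 1 region with Nanog in an intron of Eps15l1 (10 and 7). Otx2 and Dppa3 were picked after their values were seen. Otx2, a factor of the primed state, had 3 ESC-only regions in the Otx2os1 transcript, with pileups of 7 to 14. Dppa3, a maternal factor also expressed in naive ESCs, had 1 region 36428 bp from its TSS with 8 and 10, against 21 to 23 in ESCs. All of these were closed in both Nanog libraries when NanogN70-only and in both NanogN70 libraries when Nanog-only.

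The other pluripotency regulators had no NanogN70-only region, and the ones given here were picked after their values were seen. Sox2 had promoter pileups of 30 and 87 with NanogN70 and 18 and 29 with Nanog, so it was open in all 4 libraries. Sox15 had 21 and 20 against 10 and 9. Zfp42, the gene of the marker REX1, had a promoter peak with NanogN70 at day 12 only (23) and none in the other 3 libraries or MEFs, against 59, 91 and 53 in ESCs. Tdgf1 and Dppa2 held a promoter peak in the same 1 of the 4 libraries (13 and 8), but also in MEFs (5 and 9). Dppa4 and Tet1 held no promoter peak in any of the 4 libraries, against 25, 21 and 21 and 21, 23 and 22 in ESCs. A peak on 1 day alone does not meet the call, so these genes are not counted in it.

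**Figure D4:**
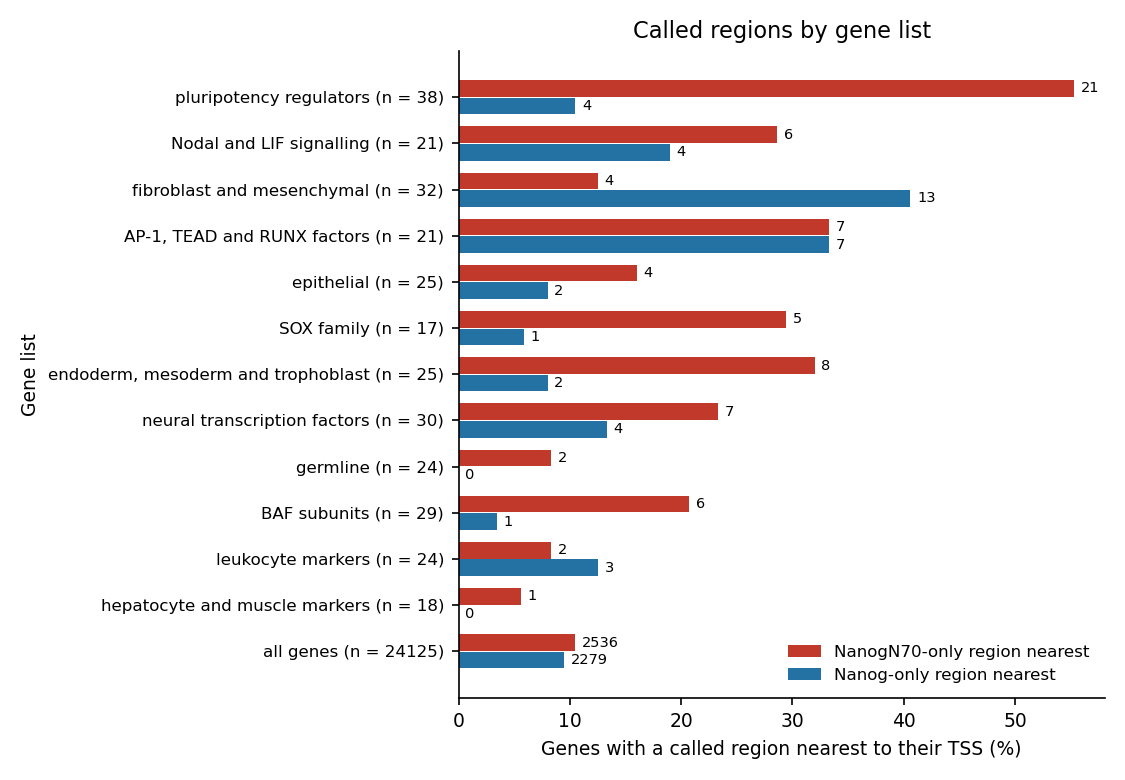
Share of the genes of each list (x axis, percent; lists on the y axis with their size) that had a NanogN70-only or a Nanog-only region nearest to their TSS; numbers at the bars count genes. Pluripotency regulators reach 55.3% and 10.5%, fibroblast and mesenchymal genes 12.5% and 40.6%, and all genes 10.5% and 9.45%.

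Fibroblast and mesenchymal genes showed the opposite counts. Of 32 genes, 13 (40.6%) had a Nanog-only region nearest and 4 (12.5%) a NanogN70-only one. Of 190 open regions near them, 18 (9.47%) were Nanog-only and 5 (2.63%) NanogN70-only, and 11 of the 18 were MEF-only. The strongest was at Twist2, a mesenchymal bHLH factor, where an exonic region (chr1:91823345-91823966) had pileups of 12 and 8 with Nanog, none with NanogN70, 55 in MEFs and none in ESCs. Postn, which encodes the matrix protein periostin, had a region 2442 bp from its TSS (chr3:54358466-54358945) with 16 and 7 with Nanog and 41 in MEFs. Twist1 had 2 MEF-only regions (11 and 9, and 11 and 4) and Thbs1, the matrix protein thrombospondin 1, had 3 Nanog-only regions of which 1 was MEF-only.

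Snai1, the repressor of E-cadherin, had 1 region of each kind, a Nanog-only region with 15 and 8 that was shared and a NanogN70-only region with 11 and 13 that was ESC-only. Zeb2 likewise had both, and its Nanog-only region lay in the promoter (chr2:45109711-45110579) with 9 and 8 with Nanog and 31 in MEFs. Taken over all its TSSs, the Zeb2 promoter was open in all 4 libraries, with 24 and 40 with NanogN70 and 11 and 18 with Nanog. Col5a1, a fibrillar collagen gene, had 2 Nanog-only regions, both MEF-only, and Tgfbr2, the type 2 receptor of TGF-beta, had 2 of the same kind. Vim, the gene of vimentin, had 1 MEF-only Nanog-only region at 9535 bp (8 and 6 with Nanog, 27 in MEFs). Promoters of the list were nevertheless open in most libraries, 23 and 28 of 32 with NanogN70 and 31 and 26 with Nanog, against 32 in MEFs.

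Of 21 genes of AP-1, TEAD and RUNX factors, 7 (33.3%) had a NanogN70-only region and 7 (33.3%) a Nanog-only region, and some had both. Of 161 open regions near them, 8 (4.97%) were NanogN70-only and 12 (7.45%) Nanog-only, against 5.04% and 4.66% over all genes. Bach2, a relative of AP-1, had 3 Nanog-only regions, the strongest with 20 and 9 with Nanog and 60 in MEFs, and 1 NanogN70-only region. Fos had 1 MEF-only region with Nanog (12 and 7) and Runx3 had 2 Nanog-only regions. Tead4 had 2 NanogN70-only regions, both ESC-only (6 and 12, and 9 and 12), and Tead1 had 1 of each kind. Jun had 1 NanogN70-only and 2 Nanog-only regions. Atf3 and Fosb had 1 NanogN70-only region each.

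Among the genes of Nodal and LIF signalling, which sustain pluripotent cells, 6 of 21 (28.6%) had a NanogN70-only region and 4 (19%) a Nanog-only one, against 10.5% and 9.45% of all genes. Of the open regions near them 6.92% and 5.38% were called, near the 5.04% and 4.66% over all genes. A region reaching into the Nodal promoter (chr10:61415245-61416917) was ESC-only, with 7 and 16 with NanogN70 and 34, 33 and 24 in ESCs. The peak of NanogN70 day 10 lay outside the promoter window itself, in which MEFs held a peak of 8. A shared region near Lefty2, an antagonist of Nodal, had 17 and 15 with NanogN70 and 65, 93 and 61 in ESCs. Lif had 2 Nanog-only regions (9 and 7, and 10 and 7) and 1 NanogN70-only region, while Lifr and Il6st, which encode the subunits of the LIF receptor, had 2 and 1 NanogN70-only regions. Smad3 had 2 MEF-only Nanog-only regions, Id2 had 2 Nanog-only regions, and Smad7 had 3 NanogN70-only regions and 1 Nanog-only region.

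Of 25 epithelial genes, 4 (16%) had a NanogN70-only region and 2 (8.00%) a Nanog-only region, against 10.5% and 9.45% of all genes. Of 73 open regions near them, 5 (6.85%) and 2 (2.74%) were called. Both promoter calls were NanogN70-only. Epcam, an adhesion molecule of epithelia and ESCs, had 7 and 11 with NanogN70, none with Nanog or MEFs and 11, 10 and 8 in ESCs. Ocln, the gene of occludin, had 6 and 8, with 7 in MEFs and 29, 25 and 20 in ESCs. Grhl3 had 2 NanogN70-only regions and St14 1, and Cldn4 and Grhl2 had 1 MEF-only Nanog-only region each (13 and 8, and 15 and 6).

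Of 25 endoderm, mesoderm and trophoblast genes, 8 (32%) had a NanogN70-only region and 2 (8.00%) a Nanog-only one, against 10.5% and 9.45% of all genes. Of 109 open regions near them, 11 (10.1%) were NanogN70-only and 2 (1.83%) Nanog-only, against 5.04% and 4.66% over all genes. The promoter calls were at Foxa2, an endoderm factor (14 and 9), and Ascl2, a trophoblast factor (8 and 13), and both regions were shared. The Foxa2 promoter held no peak with Nanog, while the Ascl2 promoter held others there (9 and 7). Of 30 neural transcription factor genes the counts were 7 (23.3%) and 4 (13.3%). Of 247 open regions near these, 15 (6.07%) were NanogN70-only, near the share over all genes, and 4 (1.62%) Nanog-only. Olig3 had 3 NanogN70-only regions, and the one in its promoter (chr10:19356130-19356480) had 12 and 10 with NanogN70 and 11 and 8 in 2 of the ESC libraries. Pou3f3, a POU factor of the developing brain, had 2, with pileups of 11 and 11, and 15 and 27, the latter open in neither MEFs nor ESCs. A region 74384 bp from Irx3 (chr8:91876020-91876636) had 14 and 14 and was also open in neither. A region in the promoter of Nkx6-1 was the only promoter call of this list on the Nanog side (7 and 14, with 35 in MEFs), but the promoter held stronger peaks in all 4 libraries, with 47 and 65 with NanogN70 and 34 and 35 with Nanog.

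Of 17 SOX genes, 5 (29.4%) had a NanogN70-only region and 1 (5.88%) a Nanog-only region. Of the open regions near them, 5.83% were NanogN70-only, near the 5.04% over all genes, and 0.971% were Nanog-only. Sox9 had 2 NanogN70-only regions, Sox5, Sox13, Sox14 and Sox30 had 1 each, and Sox7 had the Nanog-only region (8 and 6, with 59 in MEFs). Of 29 genes of BAF subunits, 6 (20.7%) and 1 (3.45%) had them, with 5.36% and 0.893% of 112 open regions, the first near the share over all genes. The strongest was a region in Wdr66 20052 bp from Bcl7a, with 7 and 14, and the only promoter call was at Phf10 (7 and 7). Promoters of BAF subunits were open in 28 or 29 of 29 cases in each of the 4 libraries. Of 24 germline genes, 2 (8.33%) had a NanogN70-only region and 0 a Nanog-only region, and of 18 hepatocyte and muscle genes 1 (5.56%) and 0 did, against 10.5% and 9.45% of all genes. Only 24 and 27 open regions lay near the genes of these lists.

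Leukocyte genes were counted as markers of cells that a MEF culture can hold. Of 24 genes, 2 (8.33%) had a NanogN70-only region and 3 (12.5%) a Nanog-only region, near the 10.5% and 9.45% of all genes. Promoter peaks were found at 4, 4, 4 and 5 of the 24 in NanogN70 days 10 and 12 and Nanog days 10 and 12, against 11 in MEFs and 10 to 13 in ESCs. Ptprc, the gene of the pan-leukocyte marker CD45, and Itgam held none in any of the 4 libraries. The promoter of Csf1r, the macrophage receptor gene, held the only promoter call, with 9 and 6 with Nanog, none with NanogN70 and 26 in MEFs. The part of such cells in this call was not tested.

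The highest-ranked called regions are given by position, ranked on the lower of their 2 scores. Of the 10 on the NanogN70 side, 5 were ESC-only, 3 open in neither cell type and 2 shared. The first (chr13:3730258-3730957) lay between genes 73777 bp from Calml3, with pileups of 13 and 18 with NanogN70, none with Nanog and 14, 17 and 8 in ESCs. The region 63438 bp from Galntl6 (chr8:57732685-57733300) had 19 and 20, with 59, 74 and 64 in ESCs. The region 124184 bp from Shb (chr4:45654173-45655038) had 14 and 16, and the one 27813 bp from Dynll2 (chr11:88015069-88016141) had 23 and 15 and was open on 6 of the 6 earlier days with NanogN70 and 3 with Nanog. An exonic region of Mbp had 16 and 25, with 29, 37 and 27 in ESCs.

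The regions open in neither MEFs nor ESCs were an intron of Pou2f2 (chr7:25150788-25151520; 15 and 13), an intron of Pknox2 (chr9:37093025-37093595; 18 and 20) and a region 183035 bp from Sfrp2 (chr3:83582958-83583724; 15 and 13). Each was open on 2 of the 6 earlier days in the NanogN70 path and on 0 in the Nanog path. The 2 shared regions lay near Epha2 (16 and 20, with 6 in MEFs and 43, 52 and 41 in ESCs) and Pwwp2a (9 and 14). The 5 highest promoter calls were at Xrra1 and Spcs2 (22 and 20, open on none of days 0 to 8 in either path), Fam83g (13 and 29), the glucose transporter gene Slc2a3 (13 and 19), Gm23251 (14 and 21) and Hmx3 (12 and 18). The region at Xrra1 and Spcs2 was MEF-only, with 6 in MEFs. Those at Fam83g and Gm23251 were ESC-only, and those at Slc2a3 and Hmx3 were shared, with 8 and 5 in MEFs.

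Of the 10 highest on the Nanog side, 8 were MEF-only and 2 open in neither cell type. The first (chr3:109273059-109273883) lay 67457 bp from Vav3, with pileups of 26 and 18 with Nanog, none with NanogN70 at days 10 and 12 and 59 in MEFs. It was open on all 6 earlier days in both paths. The region 125431 bp from Smad6 (chr9:63895976-63896898) had 19 and 19, with 80 in MEFs, and the intron of Utrn (chr10:12821134-12821680) had 17 and 17, with 23 in MEFs. An intron of Pnrc1 had 26 and 11, and regions nearest to Osr1 (270021 bp) and Cd47 (103937 bp) had 19 and 10, and 22 and 11. Regions near Hdac4 (23 and 13) and Gm25754 (12 and 16) were also MEF-only, and those nearest to Rfx3 (237437 bp; 11 and 10) and Mki67 (551505 bp; 23 and 8) were not open in MEFs.

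All 10 of these Nanog-side regions had been open on 2 to 6 of the 6 earlier days in the NanogN70 path as well, and on 5 or 6 in the Nanog path. The 5 highest promoter calls were at Lgals9, the gene of a galectin (12 and 9, with 48 in MEFs), Tmem204 (19 and 11, with 110), the interferon-induced gene Ifi35 (19 and 12, with 35), Ube2g2 (17 and 18, with 15) and Tbc1d2b (13 and 10, with 21).

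Short motifs were counted within 25 bp of the summit on both strands as exact letters. For SOX factors the letters were ACAATG, with ACAAAG as the other accepted form. For OCT factors they were ATGCAAAT, with ATGCTAAT as the other form, and the OCT-SOX composite was searched as well. The letters for NANOG were TAATGG, for KLF factors GGGNGTGG and for ESRRB the run TCAAGGTCA. For RFX factors GTTGCCATG was searched, for STAT factors TTCCNGGAA and for GRHL factors AACNNGTT. The letters for GATA factors were AGATAA. AP-1 was searched as TGANTCA, while TEAD factors were searched as GGAATG. The RUNX letters were TGTGGTT, and those of ETS factors were CCGGAAGT. CTCF was searched by part of its long motif, AGGNGGC, and the GC box by GGGCGG. SOX and OCT-SOX letters, and KLF, CTCF and GC box letters, can overlap. A match is a description of the letters and not of binding. SOX letters were found in 10.3% of NanogN70-only regions (9.30 to 11.3) and 4.82% of Nanog-only regions (4.14 to 5.57), against 7.00% of regions open in any of the 4 libraries and 7.04% of all regions of the series. Within the NanogN70-only set they were found in 15% of the regions open in neither cell type, 11.4% of the ESC-only regions and 4.04% of the shared ones, against 10.0%, 10.2% and 3.90% of the regions of these states open in any of the 4 libraries. Among these 3 states the difference from regions of like state was largest in those open in neither MEFs nor ESCs.

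AP-1 letters showed the reverse. They were found in 12.1% of Nanog-only regions (11.0 to 13.2) and 1.35% of NanogN70-only regions (1.01 to 1.78), against 3.84% of regions open in any of the 4 libraries. In the MEF-only regions of the Nanog-only set the share was 17.1%, against 13.5% of all MEF-only regions open in any of the 4 libraries, and in those of the NanogN70-only set, 179 in number, it was 1.12%. TEAD letters were found in 6.66% of Nanog-only and 3.06% of NanogN70-only regions (3.33% over all), and RUNX letters in 2.03% and 0.894% (1.11%). The motif sits near the summit of the region at Vav3 shown above, TGACTCA beginning at base 44 of the 101.

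Letters of the pluripotency factors themselves were rare in both sets. NANOG letters were found in 2.41% of NanogN70-only regions and 1.23% of Nanog-only regions (1.70% over all), OCT letters in 1.11% and 0.975% (0.900%) and OCT-SOX letters in 9 and 4 regions. KLF letters were found in 3.71% and 1.42% (2.72%), GC box letters in 5.50% and 1.59% (7.80%) and CTCF letters in 8.64% and 4.46% (7.99%). RFX letters were found in 19 NanogN70-only regions and 1 Nanog-only region. ESRRB, STAT, GRHL, GATA and ETS letters were each found in under 2% of either set. The median GC content of the 51 bases was 54.9% in NanogN70-only regions and 51.0% in Nanog-only regions, against 54.9% over all, and its part in the shares of GC-rich letters was not tested.

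**Figure D5:**
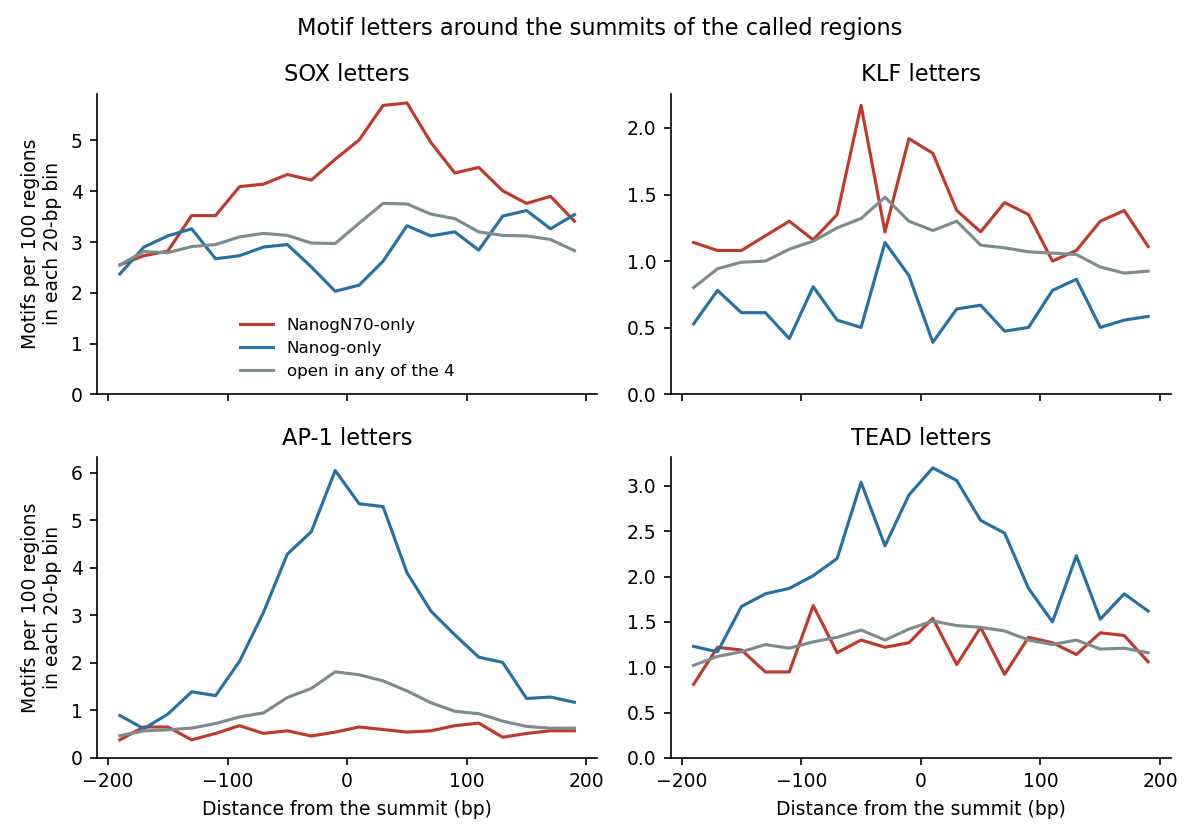
Motif letters per 100 regions in bins of 20 bp (y axis) by distance from the summit in bp (x axis) for NanogN70-only regions, Nanog-only regions and regions open in any of the 4 libraries. AP-1 letters reach 6.05 per 100 Nanog-only regions in the bin centred 10 bp before the summit, against 0.542 in NanogN70-only regions, and SOX letters reach 5.74 per 100 NanogN70-only regions in the bin centred 50 bp after it.

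A wider window, chosen after seeing the data, gave the same order. Within 100 bp of the summit AP-1 letters were found in 33.2% of Nanog-only regions and 5.47% of NanogN70-only regions (11.6% over all), TEAD letters in 22.1% and 11.6% (12.5%), and SOX letters in 35.0% of NanogN70-only regions and 23.5% of Nanog-only regions (26.5%). KLF letters were found in 12.2% and 5.93% (10.5%).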

How the data were processed

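ATAC-seq had been carried out on 20 samples, and the 4 libraries of days 10 and 12 were compared. According to the labels' processing notes and the study's methods, the authors trimmed reads with Trim Galore (0.6.4), aligned them with Bowtie2 (2.4.5) to mm10, filtered them with SAMtools (1.16.1) and called peaks with MACS (1.4.2) in each library separately. The authors deposited a score for each peak (-10 times log10 of the p-value) and, as signal, the coverage in tags at each summit, which is not scaled to depth. Depth per sample is unknown.

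Peaks overlapping by at least 1 bp were merged over the 20 libraries. A region's summit was that of its highest-scoring peak in the 4 libraries. Annotation was GENCODE M21 and sequence GRCm38, the assembly that mm10 names, and all regions on its chromosomes ended within them. Analysis used Python 3.11.15, pandas 2.3.3 and scipy 1.17.1. Intervals are exact (Clopper-Pearson, 95%) and cover counting error only. Tests were exact two-sided permutation tests over libraries or days, and p-values measure only the spread between these samples. The calling code was tested on simulated peaks. Named regions were the 10 highest called regions and 5 highest promoter calls of each side by the lower of their 2 scores, at most 8 members a list by score and all members with a promoter call. The comparison, its gene lists and motifs were chosen with earlier results of these data known. Alternatives were the top 44000 peaks, a score of at least 100, summits within 200 bp, other merging, libraries or days left out, and promoters of 1 kb. Read-level differences and any replicate spread were not analysed here.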

Additional observations from a re-analysis of the deposited data

Results flagged for a closer look

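Regions open in neither MEFs nor ESCs went in opposite directions on the 2 days: their share open, NanogN70 minus Nanog, was -0.474 points at day 10 and 1.73 points at day 12. The same was seen at mixed regions (-0.648 and 1.10 points) and in the number of peaks (-6590 and 5429). With 1 library for each path and day, the difference between the days was not tested.

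A signal outside the comparison was found on the coding exons of Nanog, which the vectors carry. The highest pileup of a peak there was 8 in NanogN70 day 10, 17 in Nanog day 10 and 9 in Nanog day 12, with no peak in NanogN70 day 12, in MEFs or in the ESC libraries. At day 0 it was 428 with NanogN70 and 559 with Nanog. Reads of vector DNA and of the gene itself cannot be told apart in peak lists.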

How the results depend on the processing

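The differences in share open between the paths kept their sign in each recomputation, while the order of the 2 counts of called regions turned without Nanog day 10 and without Nanog day 12. With a score of at least 100, NanogN70-only regions numbered 2153 and Nanog-only regions 1210, with ESC-only and MEF-only shares of 30.7% and 56.3%. With the top 44000 peaks applied to the MEF and ESC lists too, these shares were 39.1% and 49.1%, the differences in ESC-only and MEF-only regions open 12.5 and -11.8 points (6.38 and -5.23 with all peaks), and the daily differences 12.7 and -27.6 points, with exact permutation adjusted p = 0.0312 for each. Subtracting the background moved the daily differences to 14.1 and -24.8 points, also with adjusted p = 0.0312 in the exact test. The background regions had stronger peaks than the called ones, so peak yield at weak regions is not covered by this step. Promoters of 1 kb gave 8.5% and 4.04% in place of 11.4% and 5.91%. Leaving out 1 library, so that a side is 1 day, gave 5134 to 13943 NanogN70-only regions (13943 without NanogN70 day 10, 7084 without NanogN70 day 12, 8803 without Nanog day 12) and 4318 to 13724 Nanog-only regions (13724 without Nanog day 12, 7729 without Nanog day 10). The ESC-only share was then 27.1% to 35.5%, the MEF-only share 34.3% (without Nanog day 10) to 48.7%, and the differences in ESC-only and MEF-only regions open 3.37 (without NanogN70 day 12) to 9.40 and -7.56 to -2.90 (without Nanog day 10) points. Leaving out 1 day gave 14.2 to 18.7 and -28.5 to -16.7 points. The causes of these moves were not tested, other than that a call on 1 day asks for less. Unknown depth, peaks near the threshold and the lack of replicates limit every count. The labels give no replicate numbers by which libraries of the paths could be paired, and the test over days 0 to 8 paired them by day.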

Other observations

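Some genes gathered several called regions, and these were picked after the counts were seen. On the NanogN70 side Nckap5 and Zfp423, a zinc finger gene of the adipocyte and neural lineages, had 7 NanogN70-only regions each, with 2 and 1 Nanog-only regions. Sfrp1, a secreted antagonist of WNT, had 4 and no Nanog-only region, and Myo10, the gene of an unconventional myosin, had 4 and none. On the Nanog side Pde4b, a cAMP phosphodiesterase gene, had 7 Nanog-only regions and no NanogN70-only region. Gab1, an adaptor of receptor tyrosine kinases, the protease gene Htra1 and the potassium channel gene Kcnma1 had 5 each and none of the other kind. Longer and more isolated genes collect more regions by position, and this was not adjusted for.

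A region open on 1 side at day 10 was often not so at day 12. Of 12896 regions open at day 10 with NanogN70 and not with Nanog, 28.7% were so again at day 12, 39.6% were open in both paths and 5.47% with Nanog alone. Of 16669 open at day 10 with Nanog and not with NanogN70, 21.5% were so again, 10.6% were open in both, 7.03% with NanogN70 alone and 60.8% in neither.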
